A study of Mus musculus with 12 samples.

Results

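Genes of glutathione synthesis and of the thioredoxin system, with the NADPH and quinone enzymes that are usually measured beside them, were followed in C2C12 cells in which Bach1 was silenced. The 10 genes were Gclc, Gclm, Gss, Gsr, Slc7a11, Txnrd1, Txn1, Srxn1, Nqo1 and G6pdx, named as known targets of Nrf2 when earlier results of these data were known, out of 27306 gene symbols on the array. All 15 probes that carry one of these symbols were taken, out of 56605 probes. C2C12 is a mouse myoblast line of C3H origin that fuses into myotubes when the serum is reduced. The cells received siControl or siBach1, the latter an siRNA against Bach1 given as siBach1-2 in the study's methods. RNA was taken at day 0, before differentiation was induced with horse serum, or at day 2. There were 3 replicates of each of the 4 conditions, on 12 one-colour Agilent arrays. Cells at day 2 had also had a change of serum and more time since the siRNA. In comparisons of the days, these cannot be told apart from differentiation itself. All cells carried an siRNA, and all results come from 1 cell line. Only 1 siRNA against Bach1 was used on the arrays, so loss of Bach1 and other effects of that siRNA cannot be told apart. The labels do not say whether replicates were separate cultures, so p-values measure the spread between these samples, which may be technical.

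Glutathione is made from glutamate, cysteine and glycine. Glutamate-cysteine ligase, built from the catalytic subunit Gclc and the modifier subunit Gclm, carries out the limiting step, glutathione synthetase (Gss) adds glycine, and the transporter Slc7a11 imports the cystine from which cysteine comes. Glutathione reductase (Gsr) and thioredoxin reductase (Txnrd1) return oxidised glutathione and oxidised thioredoxin to their reduced forms with NADPH, for which glucose-6-phosphate dehydrogenase (G6pdx) is a main source. Bach1 is a repressor that binds, together with small Maf proteins, to antioxidant response elements, to which the activator Nrf2 also binds.

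Because both factors are known for these elements, the DNA just before the start of the genes is shown first. RefSeq promoter windows of build GRCm38.p6, each running from 250 bases before to 50 bases after a gene's start, held 8 of the 10 genes in 10 windows, of which Txnrd1 had 3. Gclc and Gsr had no window here. The core of the antioxidant response element, TGACNNNGC with N for any base, was searched on both strands and lay in the windows of Gclm, Srxn1, Txnrd1 and G6pdx. It was found in 12.4% of all 32851 windows and in 14.0% of the 27025 genes with a window. A Maf recognition element with an AP-1 core, TGANTCAGC, was found in Srxn1 alone among the 8 genes, where it lay before the start. Of all windows 1.19% held it anywhere and 1.02% before the start. The 150 bases before the start are printed 5′ to 3′ on the strand of the gene, with matches in capitals, for the 4 genes with a match and for Nqo1, the gene that fell most during differentiation. The Gclm match was the antioxidant response element core on the opposite strand, 134 bases before the start (chr3:122245407-122245556, + strand).
Gclm: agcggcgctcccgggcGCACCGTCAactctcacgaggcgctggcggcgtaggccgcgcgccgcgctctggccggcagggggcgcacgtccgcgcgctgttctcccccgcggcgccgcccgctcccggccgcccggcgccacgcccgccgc
For Txnrd1 the match was on the opposite strand too, 92 bases before the start in 1 of its 3 windows (chr10:82859056-82859205, + strand).
Txnrd1: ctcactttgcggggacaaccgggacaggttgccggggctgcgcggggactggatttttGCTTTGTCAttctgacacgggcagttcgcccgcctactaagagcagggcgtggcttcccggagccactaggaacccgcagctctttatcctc
In G6pdx the opposite-strand match lay 57 bases before the start (chrX:74428881-74429030, - strand).
G6pdx: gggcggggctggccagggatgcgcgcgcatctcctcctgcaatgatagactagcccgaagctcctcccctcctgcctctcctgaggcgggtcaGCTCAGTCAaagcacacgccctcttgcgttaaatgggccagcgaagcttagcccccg
The capitals of Srxn1 mark the Maf recognition element, 45 bases before the start on the strand of the gene (chr2:152105374-152105523, + strand); its antioxidant response element core lay 29 bases after the start and is not printed.
Srxn1: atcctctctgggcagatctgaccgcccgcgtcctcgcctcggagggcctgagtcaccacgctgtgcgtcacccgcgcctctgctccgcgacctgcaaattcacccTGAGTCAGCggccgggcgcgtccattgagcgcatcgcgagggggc
Neither set of letters was in the window of Nqo1 (chr8:107403206-107403355, - strand), nor in those of Gss, Slc7a11 and Txn1.
Nqo1: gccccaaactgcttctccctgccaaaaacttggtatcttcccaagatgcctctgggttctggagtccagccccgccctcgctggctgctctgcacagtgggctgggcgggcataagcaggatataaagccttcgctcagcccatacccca
A match describes letters in a window and is not a measured binding site. DNA outside the windows was not searched, so a window without a match does not mean that the gene has no such element. Of the 4 genes with a match, Gclm rose after silencing on both days, Txnrd1 and Srxn1 fell at day 0, and G6pdx was not called.

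Values are log2 signals after the array's 75th percentile was subtracted, so 0 is that percentile. Probes entered the test if the scanner rated them as well above background on each of the 3 arrays of 1 condition or more, which held for 12 of the 15 probes and for at least 1 probe of every gene. Where a gene had several tested probes, the one of highest mean signal stands for it. The conditions were compared with limma in a single fit, and calls were made at an adjusted p (Benjamini-Hochberg) under 0.05 over all 29664 tested probes. The share of probes well above background ranged from 47.6% to 58.9% over the arrays, and no spot was saturated. Bach1 itself was 3.42-fold lower in siBach1 than in siControl cells at day 0 and 3.91-fold lower at day 2 (limma adjusted p = 1.23e-05 and 1.36e-05), the direction that the labels give. Of the 9 muscle markers on the array, such as Myog and Myh3, 8 passed that rating on every one of the 12 arrays, and their summed level was 70.4 to 85.2 times the 75th percentile in siControl cells at day 0 and 1260 to 1360 times at day 2. In siBach1 cells the same sum was 64.5 to 80.9 at day 0 and 826 to 989 at day 2, and 3 of the 8 tested muscle markers had a called fall at day 2. The lists for other cell types gave mixed readings. Adipoq, Adgre1, Cdh5, Tek and Kdr were above background on none of the 12 arrays. Lep of the adipocyte list, Sp7 of the osteoblast list and Ptprc, Csf1r, Itgam and Cd68 of the macrophage list were above it on all 12, and Pecam1, Plin1, Bglap, Fabp4, Dmp1, Cidec and Ibsp on 11, 10, 8, 6, 5, 2 and 1. In bulk RNA, fewer cells of a kind and less RNA per cell cannot be told apart.

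Gclm rose most after Bach1 was silenced, at both days. At day 0 the signal was 3.34, 3.49 and 3.41 in siControl and 3.98, 4.26 and 4.35 in siBach1 cells. At day 2 it was 1.40, 1.34 and 1.21 in siControl and 2.43, 2.44 and 2.62 in siBach1 cells. All siBach1 values lay above all siControl values of the same day, and each day 2 value lay below every day 0 value. The rise was 1.72-fold at day 0 (95% interval 1.46 to 2.04, limma adjusted p = 0.000893) and 2.26-fold at day 2 (1.91 to 2.67, adjusted p = 0.000225). From day 0 to day 2 Gclm fell 4.27-fold in siControl and 3.26-fold in siBach1 cells (adjusted p = 1.96e-07 and 7.35e-07). In order of level the conditions ran from siBach1 day 0 through siControl day 0 and siBach1 day 2 to siControl day 2, and no neighbours in this order overlapped.

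Gclc, whose product is the subunit with the active site, had the same order of conditions as Gclm but a smaller response to silencing. The 3 siControl values at day 0 were 2.47, 2.57 and 2.43, and the siBach1 values were 2.72, 2.74 and 2.74. At day 2 they were 0.75, 0.54 and 0.66 in siControl and 1.32, 1.11 and 1.41 in siBach1 cells. The conditions did not overlap on either day. At day 2 silencing raised Gclc 1.55-fold (95% interval 1.34 to 1.79, adjusted p = 0.00282), whereas the difference at day 0 was 1.18-fold (1.02 to 1.37) and was not called (adjusted p = 0.109). Between day 0 and day 2 Gclc fell 3.58-fold in siControl and 2.73-fold in siBach1 cells (limma adjusted p = 1.8e-07 and 8.19e-07).

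Gss was the member with the smallest change during differentiation. Its leading probe gave 3.95, 3.96 and 4.12 in siControl and 4.06, 4.12 and 4.42 in siBach1 cells at day 0. The day 2 values were 4.08, 3.91 and 4.24 in siControl and 3.74, 3.63 and 3.81 in siBach1 cells. The siRNAs overlapped at day 0, while at day 2 every siBach1 value was below every siControl value. Silencing changed Gss by 0.19 on the log2 scale at day 0 and -0.35 at day 2 (SE 0.12 for both, limma adjusted p = 0.321 and 0.0832), and neither was called. With the replicate number as a block, the day 2 difference was called lower (adjusted p = 0.0126). In siControl cells the change from day 0 to day 2 was 0.07 (95% interval -0.20 to 0.33) and not called, whereas Gss fell 1.39-fold in siBach1 cells (adjusted p = 0.00597). The second Gss probe gave a silencing effect of -0.04 at day 2 (adjusted p = 0.887) and was also called lower between the days in siBach1 cells (log2 change -0.37, adjusted p = 0.0195).

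The values of Slc7a11 had the widest spread of all members. Of its 4 probes only 1 was tested, which was well above background on 11 of the 12 arrays, and the others were well above background on 1, 0 and 0 of the 12 arrays. The tested probe gave -1.76, -1.73 and -1.42 in siControl and -2.20, -2.34 and -2.66 in siBach1 cells at day 0. At day 2 it gave -2.98, -1.90 and -4.87 in siControl and -3.73, -3.03 and -3.67 in siBach1 cells. The siRNAs did not overlap at day 0, siBach1 being lower, and overlapped at day 2, when the lowest siControl value came from an array on which the probe was not well above background. Silencing changed the signal by -0.76 at day 0 and -0.23 at day 2 on the log2 scale. Neither was called (SE 0.58 for both, limma adjusted p = 0.411 and 0.858). The fit takes its SE from the spread in all 4 conditions. At day 0 the SD was 0.19 in siControl and 0.23 in siBach1 cells, against 1.51 and 0.39 at day 2. Of 24 alternatives, which include an unadjusted t-test, 2 called the day 0 fall. The fall during differentiation was 3.06-fold in siControl cells (adjusted p = 0.0363), and the log2 change of -1.08 in siBach1 cells was not called (adjusted p = 0.139). The siControl call of Slc7a11 was lost, at adjusted p of 0.0574 to 0.0928, without any one siControl array other than day 2 replicate 2, and without day 2 replicate 3 the change was -0.80. Of the 24 alternatives, which include these 5, 9 did not keep the siControl call, with adjusted p of up to 0.21. The siBach1 change was called without siControl day 2 replicate 2 or 3 (adjusted p = 0.0495 and 0.00951).

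Gsr, the enzyme that reduces glutathione disulphide, fell when Bach1 was silenced. At day 0 it stood at 4.51, 4.47 and 4.66 in siControl and at 3.96, 3.71 and 3.89 in siBach1 cells. The day 2 values were 3.05, 2.98 and 3.30 in siControl and 2.72, 2.58 and 2.81 in siBach1 cells. All siBach1 values were below the siControl values of the same day. The fall was 1.62-fold at day 0 (log2 change -0.70, 95% interval -0.94 to -0.45, adjusted p = 0.00207) and 1.33-fold at day 2 (-0.41, -0.65 to -0.16, adjusted p = 0.0406). Gsr fell 2.71-fold during differentiation in siControl and 2.22-fold in siBach1 cells (adjusted p = 2.41e-06 and 1.02e-05). The day 2 silencing call was lost, at adjusted p of 0.0549 to 0.125, without siControl day 0 replicate 1 or 2, siControl day 2 replicate 1 or 3, or any siBach1 day 2 replicate, with a change of -0.46 to -0.31. Of all 25 alternatives, which include these 7 and a fold limit of 2, 11 did not keep the call, with adjusted p of up to 0.159.

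**Figure D1:**
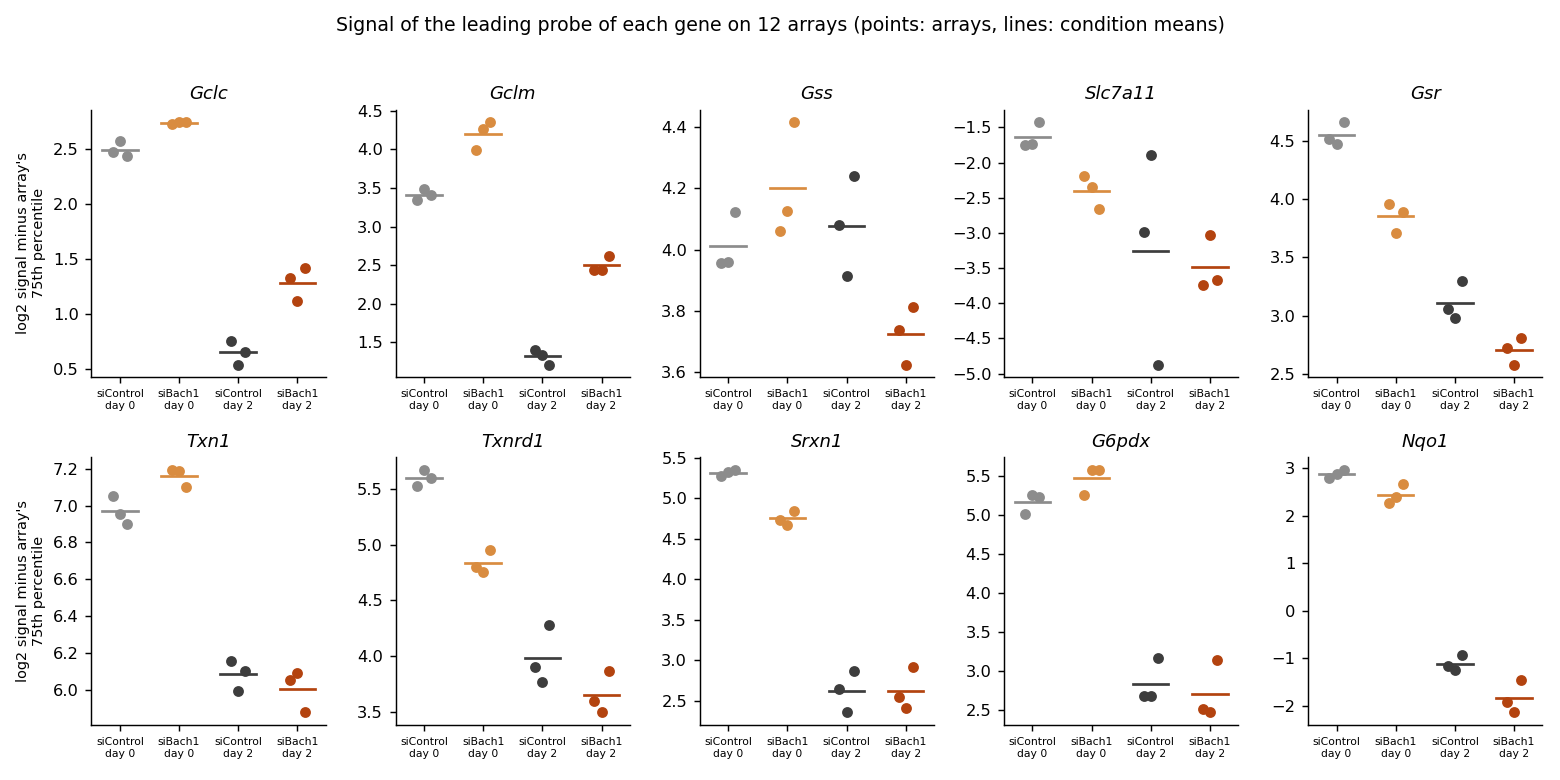
Log2 signal minus the array's 75th percentile (y axis of each panel, with its own scale) of the leading probe of each gene in the 4 conditions (x axis); points are the 3 arrays and lines the mean of a condition. Day 2 values of Gclc, Gclm, Gsr, Txn1, Txnrd1, Srxn1, G6pdx and Nqo1 all lie below their day 0 values, and only Gclm and Gclc have every siBach1 value above every siControl value on both days.

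Txn1 encodes cytosolic thioredoxin, the small protein that carries the reducing power of this system. It gave 7.05, 6.96 and 6.90 in siControl and 7.20, 7.19 and 7.10 in siBach1 cells at day 0. At day 2 the values were 6.16, 5.99 and 6.10 in siControl and 6.05, 6.09 and 5.88 in siBach1 cells. The siRNAs did not overlap at day 0, by a small margin, and overlapped at day 2. Silencing changed Txn1 by 0.19 at day 0 and -0.08 at day 2 on the log2 scale (SE 0.09 for both, adjusted p = 0.159 and 0.625), and neither was called. With quantile normalization the Txn1 value of day 2 was 0.08. It fell 1.85-fold during differentiation in siControl and 2.23-fold in siBach1 cells (adjusted p = 1.13e-05 and 1.89e-06).

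Txnrd1, the reductase of thioredoxin, fell after silencing. Its leading probe gave 5.53, 5.68 and 5.60 in siControl and 4.80, 4.75 and 4.95 in siBach1 cells at day 0. At day 2 it gave 3.90, 3.77 and 4.28 in siControl and 3.60, 3.49 and 3.87 in siBach1 cells. The siRNAs were apart at day 0 and overlapped at day 2. The fall was 1.70-fold at day 0 (log2 change -0.77, 95% interval -1.08 to -0.45, adjusted p = 0.00459), and the day 2 change of -0.33 (-0.64 to -0.02) was not called (adjusted p = 0.163). The second Txnrd1 probe was called lower on both days, by 2.10-fold at day 0 and 1.71-fold at day 2 (adjusted p = 0.00024 and 0.00319), so that the probes of this gene disagreed on the day 2 call. On that probe the values at day 2 were 3.44, 3.31 and 3.38 in siControl and 2.40, 2.72 and 2.68 in siBach1 cells, without overlap. During differentiation both Txnrd1 probes fell 3.08-fold in siControl cells, and the leading probe fell 2.27-fold in siBach1 cells (adjusted p = 5.24e-06 for the leading probe in siControl and 4.4e-05 in siBach1 cells).

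Srxn1, or sulfiredoxin, restores peroxiredoxins that hydrogen peroxide has overoxidised. At day 0 its signal was 5.27, 5.32 and 5.35 in siControl and 4.73, 4.67 and 4.84 in siBach1 cells. At day 2 it was 2.65, 2.36 and 2.87 in siControl and 2.55, 2.41 and 2.92 in siBach1 cells. The siRNAs were apart at day 0 and lay over each other at day 2. Silencing lowered Srxn1 1.48-fold at day 0 (log2 change -0.57, 95% interval -0.90 to -0.23, adjusted p = 0.0279), and the day 2 difference was 0.0012 (-0.33 to 0.34, adjusted p = 0.997). The day 0 call of Srxn1 was lost, at adjusted p of 0.0654 to 0.0807 and a change of -0.59 to -0.53, without any one of the 3 siControl replicates or without siBach1 replicate 1 or 2 of that day. Of all 25 alternatives, which include these 5 and a fold limit of 2, 7 did not keep the call, with adjusted p of up to 0.101. Srxn1 had the second largest fall of the members in siControl cells during differentiation, 6.45-fold, and fell 4.36-fold in siBach1 cells (adjusted p = 3.11e-07 and 1.41e-06).

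G6pdx, the entry enzyme of the pentose phosphate pathway, fell with differentiation and was not called after silencing. It gave 5.01, 5.26 and 5.23 in siControl and 5.26, 5.57 and 5.58 in siBach1 cells at day 0. The day 2 values were 2.68, 2.68 and 3.17 in siControl and 2.51, 2.47 and 3.14 in siBach1 cells. The siRNAs overlapped on both days, although each siBach1 value was above the siControl value of the same replicate number at day 0 and below it at day 2. The silencing effect was 0.30 at day 0 (95% interval -0.14 to 0.75) and -0.13 at day 2 (-0.58 to 0.31), with adjusted p of 0.338 and 0.731. With the replicate number as a block the SE fell from 0.20 to 0.13, and G6pdx was still not called (adjusted p = 0.125 and 0.508). From day 0 to day 2 G6pdx fell 5.02-fold in siControl and 6.79-fold in siBach1 cells (adjusted p = 4.75e-06 and 1.56e-06).

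Nqo1 reduces quinones with NADPH or NADH and is among the most used reporters of Nrf2 activity. Its signal at day 0 was 2.80, 2.89 and 2.97 in siControl and 2.27, 2.40 and 2.66 in siBach1 cells. At day 2 it was -1.16, -1.25 and -0.92 in siControl and -1.91, -2.14 and -1.46 in siBach1 cells. All siBach1 values were below the siControl values of the same day, and the day 2 values stayed well above background on all arrays. The silencing effect was -0.44 on the log2 scale at day 0 (95% interval -0.82 to -0.06, adjusted p = 0.107, not called) and -0.73 at day 2 (-1.11 to -0.35, adjusted p = 0.0221), a 1.66-fold fall. With the replicate number as a block the day 0 effect was called too (adjusted p = 0.0174). Although taken at the outset as a gene without a response, Nqo1 was called lower at day 2, opposite to Gclm. That Nqo1 call was lost, at adjusted p of 0.0557 to 0.0779 and a change of -0.75 to -0.58, without siControl day 2 replicate 1 or 3 or siBach1 day 2 replicate 1 or 2. Of all 25 alternatives, which include these 4 and a fold limit of 2, 8 did not keep the call, with adjusted p of up to 0.161. Between day 0 and day 2 Nqo1 fell 15.9-fold in siControl and 19.4-fold in siBach1 cells, more than any other member (limma adjusted p = 5.99e-08 and 4.78e-08).

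**Figure D2:**
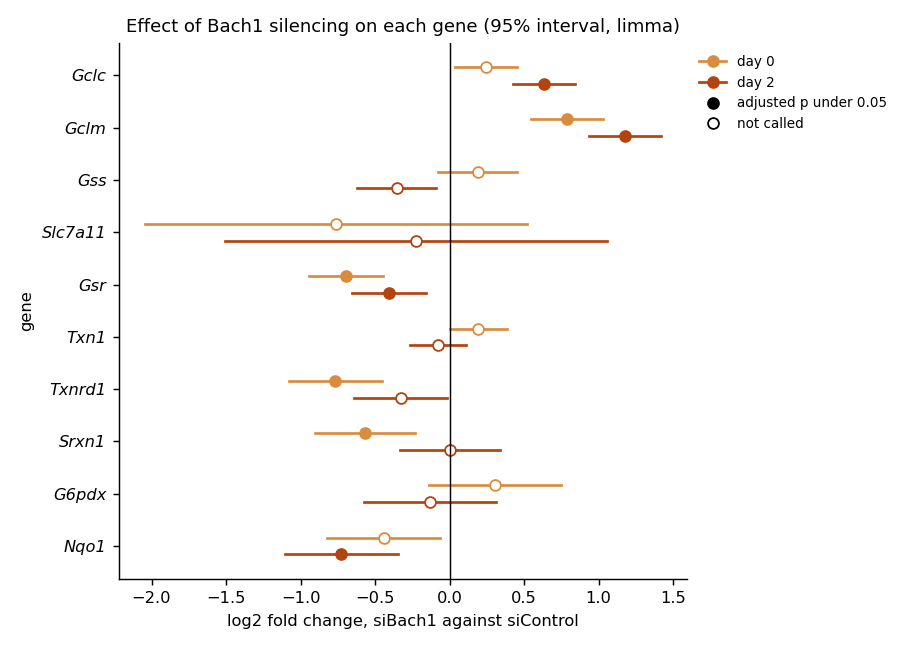
Log2 fold change of siBach1 against siControl cells (x axis) for each gene (y axis) at day 0 and day 2; bars are 95% intervals and filled points passed an adjusted p of 0.05. Gclm lies above 0 on both days, Gclc above 0 and filled at day 2, and Gsr below 0 on both days, while Slc7a11 has the widest intervals.

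Over the 10 members, silencing at day 0 was called higher for Gclm and lower for Gsr, Txnrd1 and Srxn1. Across all 15642 tested genes 10.1% were called higher and 9.85% lower in that comparison. At day 2 Gclm and Gclc were called higher and Gsr and Nqo1 lower, against 6.38% of all genes higher and 7.4% lower. The median log2 change of the members was -0.13 at day 0 and -0.18 at day 2, beside 0.08 and -0.03 over all genes. Calls in both directions were thus present among the members on each day. With the replicate number as a block, day 0 had 1 member higher and 4 lower, where 17.5% of all genes were higher and 13.2% lower, and day 2 had 2 higher and 3 lower, where the shares were 10.4% and 13.3%. Muscle markers were lower in siBach1 cells at day 2, by a median of -0.46 over the 8 tested, and their part in these results was not tested.

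Replicates 1 and 2 shared a slide and replicate 3 was on another, so the silencing effects were also computed within each. On the slide with 2 replicates Gclm changed by 0.71 at day 0 and 1.06 at day 2 on the log2 scale, and on the other slide by 0.95 and 1.40. The day 2 rise of Gclc was 0.57 and 0.75. Gsr fell on both, with -0.66 and -0.77 at day 0 and -0.37 and -0.485 at day 2. The other called falls were -0.82 and -0.65 for Txnrd1 and -0.59 and -0.51 for Srxn1 at day 0, and -0.82 and -0.54 for Nqo1 at day 2. Slc7a11 was the member whose day 2 effect differed most between the slides, at -0.94 and 1.21. On both slides a condition always took the same column, so position and condition cannot be told apart.

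Most members fell during differentiation. Between day 0 and day 2 in siControl cells, 9 of the 10 were called lower, all but Gss, where 27.7% of all genes were called higher and 30.1% lower. After silencing 9 were called lower as well, all but Slc7a11, where 26.7% of all genes were higher and 33.3% lower. The median log2 change of the members was -1.73 in siControl and -1.32 in siBach1 cells, beside 0.01 and -0.06 over all genes. The 10th percentile of all genes was at -0.99 in siControl and -0.98 in siBach1 cells. Nqo1, Srxn1, G6pdx and Gclm were the members that fell most in siControl cells, and Txn1 and Gss had the smallest changes.

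**Figure D3:**
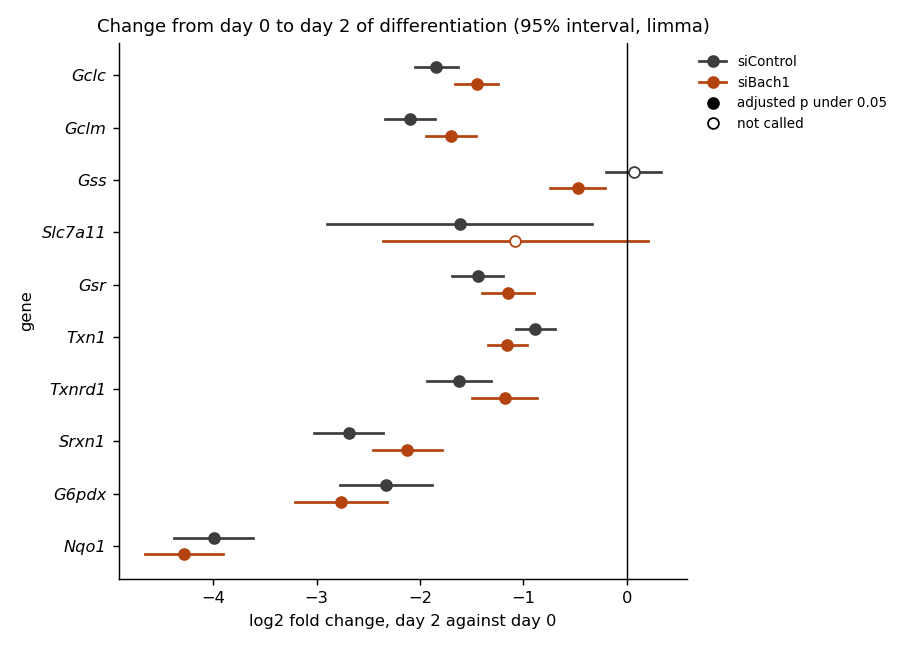
Log2 fold change from day 0 to day 2 (x axis) for each gene (y axis) in siControl and siBach1 cells; bars are 95% intervals and filled points passed an adjusted p of 0.05. All points but that of Gss in siControl cells lie below 0, and Nqo1 lies at -4.00 and -4.28.

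Whether silencing acted differently on the 2 days was tested as the difference of its effects. None of the 10 members was called by limma, while 4 had an unadjusted p under 0.05, and the robust prior and quantile normalization also called 0. Over all genes 3.08% were called with a more positive effect at day 2 and 2.74% with a more negative one. Among all calls 52.9% were more positive, a share that was 68.6% with quantile normalization and 68.3% with normexp background correction. The effect on Gclc and Gclm was more positive at day 2 by 0.39 for each on the log2 scale (SE 0.13 and 0.15, adjusted p = 0.121 and 0.173). For Srxn1 the difference was 0.57 (SE 0.21, adjusted p = 0.156) and for Gss -0.54 (SE 0.17, adjusted p = 0.0967). With the replicate number as a block Gss and Srxn1 were called (adjusted p = 0.0173 and 0.0411), where 6.41% of all genes were called more positive and 8.93% more negative. The second Gss probe gave -0.25 (adjusted p = 0.433) in the fit without a block.

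The effect of silencing on each gene was then set against that on Nqo1, by subtracting the Nqo1 signal of an array from every probe of that array. Relative to Nqo1, Gclm was higher in siBach1 cells by 1.23 at day 0 (95% interval 0.85 to 1.61) and by 1.90 at day 2 (1.52 to 2.29). This pair was named as responder and non-responder with earlier results of these data known, so its difference is a description and no test. Gclc, Gss, Txn1 and G6pdx were also called higher relative to Nqo1 at day 0, so 5 of the 9 other members, where 40.6% of all genes were called higher and 1.94% lower. At day 2 the number was 7 of 9, all but Gsr and Slc7a11, where 69.3% of all genes were higher and 0.294% lower. Higher here is relative to Nqo1, which itself fell. Of these members, only Gclm and Gclc were called higher at day 2 by their own signal. The effects of Gss, Txnrd1, G6pdx and Txn1 were -0.35, -0.33, -0.13 and -0.08, and that of Srxn1 was 0.0012, none of them called. These counts are near the shares of all genes, and the error of Nqo1 enters every gene of this comparison. Gsr did not pass the test on either day, with a difference from Nqo1 of -0.25 (95% interval -0.62 to 0.11) at day 0 and 0.32 (-0.04 to 0.69) at day 2. Without siBach1 day 2 replicate 1, or without replicate 2 of that condition, 4 members were called relative to Nqo1 at day 2.

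Genes with functions next to those of the members were described from lists by the same tests, with 1 leading probe per gene. Their counts are read beside the shares of all genes, which were 10.1% higher and 9.85% lower after silencing at day 0, 6.38% and 7.4% at day 2, and 27.7% and 30.1% for differentiation in siControl cells. Of 31 genes of glutathione turnover and transport, 29 were tested, with 2 called higher and 1 lower after silencing at day 0, and 3 higher and 3 lower at day 2, with median log2 changes of 0.12 and -0.0021. Hagh, a glyoxalase that releases glutathione, fell by 1.09 and by 0.83 on the log2 scale at the 2 days, and Gstm1, a glutathione S-transferase, rose by 0.49 and 0.78. Oplah, which recovers glutamate from oxoproline, rose by 0.55 at day 0, and the peptidase Anpep and the glutaredoxin Glrx rose by 0.72 and 0.41 at day 2. During differentiation 14 of the 29 were lower in siControl cells and 6 higher, with a median of -0.25.

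Among 30 other genes of the thioredoxin system, all tested, 6 were higher and 3 lower after silencing at day 0, and 2 were higher and 1 lower at day 2, with medians of 0.14 and -0.05. The same all-gene shares, 10.1% and 9.85% at day 0 and 6.38% and 7.4% at day 2, apply to these counts. The transmembrane thioredoxins Tmx4 and Tmx1 fell by 1.22 and 0.63 on the log2 scale at day 0, and Txnrd3 and Nxn, a reductase and a nucleoredoxin, rose by 0.51 and 0.44. Txnrd3 therefore moved opposite to Txnrd1 at day 0. Sesn1, a sestrin, fell by 0.25 at day 0 and rose by 0.47 at day 2. The difference between the days was called more positive for Sesn1 and Tmx4 (0.72 and 0.86, limma adjusted p = 0.00895 and 0.0246). It was called more negative for 1 other gene of the list. Of all genes 3.08% were called more positive and 2.74% more negative. At day 2 the peroxiredoxin Prdx6 rose by 0.44, and the methionine sulfoxide reductase Msra fell by 0.40. The list had 15 members lower and 7 higher between the days in siControl cells. Of 19 further enzymes of NADPH supply, 4 were higher and 1 lower at day 0 after silencing, with a median of 0.08, beside 0.08 over all genes. Idh1, Rpia and Pgd rose by 0.63, 0.51 and 0.33, and the malic enzyme Me2 fell by 0.49. The malic enzyme Me1 rose by 0.43 at day 2 and was the only call of that list on that day. In siControl cells 8 of the 19 were lower at day 2 than at day 0, and 2 were higher, where 30.1% and 27.7% of all genes were.

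Of 32 other textbook Nrf2 targets, 29 were tested. After silencing 8 were called higher and 2 lower at day 0, and all 9 calls at day 2 were higher, with median changes of 0.14 and 0.23 on the log2 scale. Of all genes 10.1% were higher and 9.85% lower at day 0 and 6.38% and 7.4% at day 2, with medians of 0.08 and -0.03. Hmox1, the haem-degrading enzyme, changed by 3.30 and 3.13 at the 2 days and the microsomal transferase Mgst2 by 1.39 and 4.23, beside which the 0.79 and 1.18 of Gclm are small. The transferases Gsta2 and Gsta4 rose by 3.34 and 1.39 at day 2, while Ugdh and Trim16 fell by 1.04 and 0.68 at day 0. Gstm1, Abcc1, Abcc4, Prdx1, Pgd, Taldo1, Tkt and Me1 were counted in this list and in another. In siControl cells 21 of the 29 were lower at day 2 than at day 0 and 1 was higher, with a median of -0.85, where 30.1% of all genes were lower and 27.7% higher.

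Among 11 genes for the factors themselves (CNC factors, small Maf proteins, Keap1 and Cul3), Bach1 was the only call at day 0. At day 2 Maff, Nfe2l1 and Keap1 fell by 0.58, 0.44 and 0.37 on the log2 scale beside Bach1. Nfe2l2, which encodes Nrf2 and was named after its values were seen, changed by -0.03 at day 0 and -0.18 at day 2 (adjusted p = 0.901 and 0.29). Of 24 genes of the Atf4 response, which is known to act on Slc7a11, 1 was higher and 1 lower at day 0, namely Slc7a1 at 0.59 and Aars at -0.62. At day 2 the 5 called genes were all lower, with a median of -0.56 over the list, where 7.4% of all genes were lower and 6.38% higher with a median of -0.03. They included Aars, Shmt2, Psat1 and Atf4 at -0.83, -0.77, -0.66 and -0.57.

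Genes whose pattern over the 12 arrays was most like that of Gclm were Gstm1, Taf3 and Slc48a1, with Pearson correlations of 0.987, 0.987 and 0.985. Gstm1 went from a mean of 3.75 in siControl to 4.24 in siBach1 cells at day 0 and from 2.57 to 3.35 at day 2. Slc48a1, a haem transporter, went from 4.49 to 4.98 and from 2.60 to 3.34. The most like Nqo1 were Wdr4, Gar1 and Ranbp1, with correlations of 0.998 for each. Ranbp1 fell from 6.03 in siControl cells at day 0 to 4.03 at day 2 and to 3.70 in siBach1 cells at day 2. The arrays share 4 conditions, so these correlations mainly follow the condition means, and they are given as a description.

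**Figure D4:**
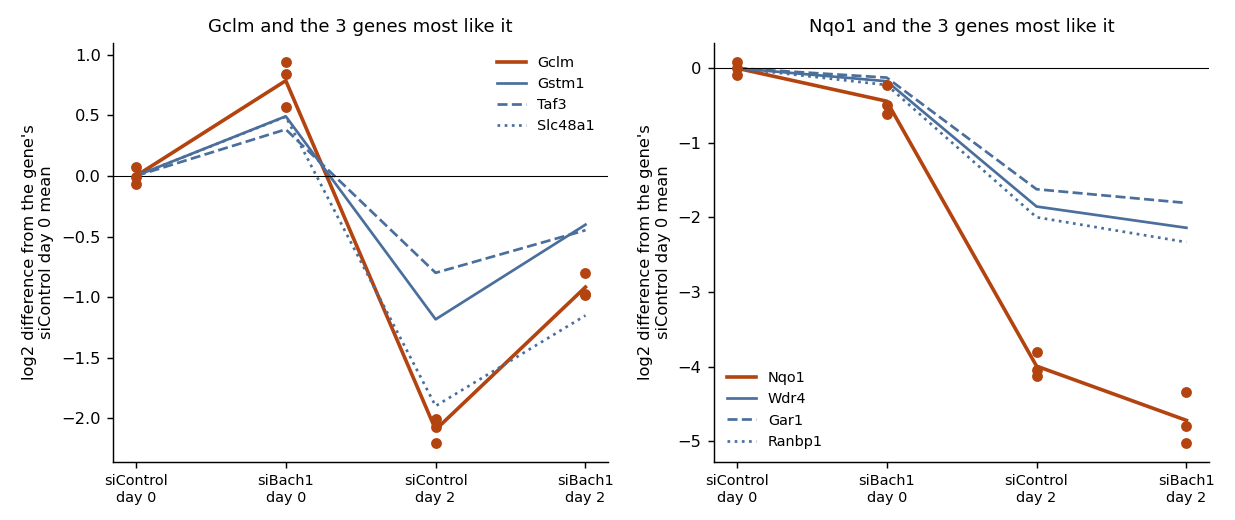
Difference in log2 signal from the gene's own siControl day 0 mean (y axis) over the 4 conditions (x axis) for Gclm (left) and Nqo1 (right), with arrays as points and means as the thick line, and the means of the 3 genes of highest correlation as thin lines. Gclm and its neighbours rise with silencing on both days and fall with differentiation, whereas Nqo1 and its neighbours step down across the conditions in the order drawn.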

How the data were processed

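RNA of 12 C2C12 samples was hybridized by the authors to one-colour Agilent SurePrint G3 Mouse arrays with Cyanine 3. Per the file headers, Feature Extraction made the processed intensity by subtracting background, and the authors deposited it per array, as well as GeneSpring's normalized log2 values in 1 table. These deposited log2 values lay within 0.00477 of the table's own signals scaled to the 75th percentile and centred on each probe's median. Here, control and outlier spots (76 to 110 per array) were removed, spots of a probe were averaged as log2, and the 75th percentile of the array was taken off. Probes were named by the deposited table, whose reference build is mm9. Coordinates are those of the RefSeq windows (GRCm38.p6). A fit in limma 3.58.1 (R 4.3.3) held all 4 conditions without a block and used Benjamini-Hochberg adjustment. It was tested on simulated data. Tables were read with pandas 2.3.3.

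Members and gene lists were chosen with earlier results of these data known. Named genes are the members, Bach1, the 3 genes of highest Pearson correlation with Gclm and with Nqo1, and from each list the 4 called genes, at most, with the largest change at each day. Residuals of same-numbered arrays correlated at 0.142 to 0.595 in all pairs, above the limit of 0.1. The numbers were thus taken to pair the arrays, but the main fit leaves this pairing out. For silencing and for the difference between days, calls with the replicate number as a block are therefore given beside those of the main fit. Numbers come from the labels, and arrays of 1 number also share a slide row. The 13 alternatives and 12 fits leaving out an array are described at the end. Precision is limited by the number of arrays, 3 per condition.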

Additional observations from a re-analysis of the deposited data

How the results depend on the processing

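Members called were 4 at day 0 and 4 at day 2 for silencing, 9 and 9 for differentiation, and 0 for the difference between days. For silencing, these counts depended on the threshold and the test on both days. At day 0 the methods' t-test without adjustment called 8 members, and an added fold change of at least 2 called 0 against 4 without that limit. At day 2 no filter called 2, only the 6 arrays of the comparison 2, the methods' t-test with Benjamini-Hochberg adjustment 1, and the fold limit 1. Leaving out 1 array gave 3 to 5 at day 0, 2 to 5 at day 2, 8 to 9 and 9 to 10 for differentiation, and 4 to 8 relative to Nqo1 at day 2, where no filter gave 4. With the replicate number as a block (paired fit), or with the slide as a block, 2 members were called for the difference between days, and Nqo1 at day 0 and Gss at day 2 were called (adjusted p = 0.0174 and 0.0126 with the replicate block, which changed no other member's call). Txnrd1 at day 2 was called with the slide as a block and with its probes averaged (adjusted p = 0.0412 and 0.00793). Signs turned only for members that were not called. With 1 array left out, the log2 values ranged from -1.04 to 0.45 for Slc7a11, -0.15 to 0.12 for Srxn1 and -0.35 to 0.0288 for G6pdx at day 2, from -0.0151 to 0.15 for Gss during differentiation in siControl cells, and from -0.27 to 1.21 for the difference of Slc7a11 between days. Txn1 turned to 0.0794 at day 2 and to 0.0359 for the difference between days with quantile normalization, and to 0.056 and 0.0185 with normexp. Srxn1 at day 2 was -0.0433 with normexp and -0.00026 with the authors' values, and Gss in siControl cells was -0.0285 with its probes averaged. Gss at day 2 was called without siBach1 day 0 replicate 3 (adjusted p = 0.0493) and Nqo1 at day 0 without siBach1 day 2 replicate 3 (adjusted p = 0.046). Of 249 member results over the alternatives for silencing, 229 kept direction and call at day 0 and 213 at day 2, and for differentiation 237 in siControl and 241 in siBach1 cells. Slc7a11 rests on 1 tested probe.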
